A study of Mus musculus with 294 samples.

Results

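The genes described here are 7 markers of the liver sinusoidal endothelium: Stab1, Stab2, Lyve1, Clec4g, Oit3, Fcgr2b and Ehd3. They were chosen by name, and all 7 were measured among the 16643 genes of the array table, each through its brightest probe set (called a probe below). The study profiled whole-liver RNA of 294 F2 mice on Affymetrix arrays, 1 array per mouse, and both parents of the cross (strain label B6/J x A/J) are inbred. The labels form a single group, with neither age, sex nor treatment given. Values are normalized intensities on the log2 scale, so a difference of 1 is a doubling. The livers fell into 2 classes by Eif2s3y, a Y-linked gene, with no liver between 3.03 and 6.97. Livers above that gap are called Eif2s3y-high and those below it Eif2s3y-low, and the Eif2s3y-low class was larger by 2 livers. All correlations were taken within a class.

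Sinusoidal endothelial cells line the liver capillaries. They have open pores and no continuous basement membrane, take up waste macromolecules from blood through scavenger receptors, and send BMP and WNT signals to the hepatocytes beside them. Stab1 and Stab2 encode the scavenger receptors stabilin-1 and stabilin-2. Lyve1 encodes a hyaluronan receptor shared with lymphatic endothelium and some macrophages, Clec4g encodes the C-type lectin LSECtin, and Fcgr2b encodes the inhibitory IgG receptor, which B cells and macrophages also carry. Oit3 encodes a secreted zona pellucida domain protein, and Ehd3 an ATPase of endosomal membrane traffic. Whole-liver RNA mixes all cell types, so fewer endothelial cells and less RNA of a gene per cell cannot be told apart in any value below.

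The members lie on 6 chromosomes. Stab2 and Oit3 are both on chromosome 10, Fcgr2b is on chromosome 1, Lyve1 on 7, Clec4g on 8, Stab1 on 14 and Ehd3 on 17 (GRCm38.p6). RefSeq promoter windows of 300 bases (250 before the start of the gene to 50 after it) were at hand for 5 of the 7 members, Lyve1 and Oit3 having none in the table used. They were searched on both strands for short motifs of factor families with roles in endothelial cells. For GATA factors the motif was AGATAA or its variant TGATAA. For ETS factors it was GGAAGT. For SOX factors it was ACAATG, and for MAF factors TGCTGA. The windows printed are those of Fcgr2b and Clec4g, which were among the pairs of highest Pearson r over all livers (0.681 and 0.731, but 0.316 and 0.200 without the 6 livers described below), and of Stab2, whose r with both was 0.242 to 0.281. Each is on the minus strand of GRCm38.p6, written 5′ to 3′ in the direction of the gene, with the matched motif in capitals. They lie at chr1:170976022-170976321 (Fcgr2b), chr8:3720602-3720901 (Clec4g) and chr10:87007893-87008192 (Stab2).
Fcgr2b: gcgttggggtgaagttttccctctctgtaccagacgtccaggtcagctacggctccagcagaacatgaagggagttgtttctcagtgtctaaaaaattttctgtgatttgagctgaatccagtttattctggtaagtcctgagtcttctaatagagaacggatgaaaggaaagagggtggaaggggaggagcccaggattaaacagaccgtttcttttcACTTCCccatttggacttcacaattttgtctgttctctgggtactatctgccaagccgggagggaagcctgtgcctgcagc
Clec4g: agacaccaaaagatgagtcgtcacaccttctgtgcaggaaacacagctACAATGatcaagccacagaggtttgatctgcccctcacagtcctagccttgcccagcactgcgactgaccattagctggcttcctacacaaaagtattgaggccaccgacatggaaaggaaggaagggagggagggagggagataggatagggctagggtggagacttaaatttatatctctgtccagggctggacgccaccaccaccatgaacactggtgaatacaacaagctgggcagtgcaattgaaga
Stab2: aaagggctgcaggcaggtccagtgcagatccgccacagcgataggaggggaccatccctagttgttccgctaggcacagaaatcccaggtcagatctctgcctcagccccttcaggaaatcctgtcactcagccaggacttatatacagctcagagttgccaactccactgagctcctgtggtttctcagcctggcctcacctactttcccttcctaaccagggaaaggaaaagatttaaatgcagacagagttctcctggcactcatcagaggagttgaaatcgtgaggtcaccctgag
Fcgr2b held the ETS motif once, in reverse, from 31 bases before the start. Clec4g held the SOX motif once, in the upstream part of its window. Stab2 held none of the motifs, Stab1 held TGCTGA from 43 bases before its start, and Ehd3 held GGAAGT just after its start. No motif overlapped another, and no member window held a GATA motif. Among all mouse promoter windows of this length 23.8% held GGAAGT, 12.6% ACAATG, 19.5% TGCTGA, 11.2% AGATAA and 9.05% TGATAA, so such matches are common, and a match describes letters, not a bound site.

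Before the correlations, 6 livers need to be described, since they stood apart from the rest. In these livers Oit3 was more than 1 log2 unit below its class median, and no other liver was lower than -0.64 (Eif2s3y-high) or -0.49 (Eif2s3y-low). This limit was set after the values were seen. Both Eif2s3y-high livers of the 6 and 1 Eif2s3y-low liver carried titles of label block 500, and the other 3 carried titles of the block with the lowest number. A label block is the set of livers whose titles begin with the same 3 digits, and its meaning is not stated in the labels. Of the 6 arrays, 3 were also among the 27 arrays with low correlation to the others.

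In the Eif2s3y-high pair, Oit3 stood at 5.60 and 5.94 against a class median of 7.61. In the Eif2s3y-low 4, Oit3 stood at 5.91, 6.38, 6.51 and 6.75 against a class median of 7.83. Every one of them was below all other livers of its class, as the limit on Oit3 requires. Fcgr2b in the same order read 6.95 and 6.55 (class median 8.82), then 7.10, 7.50, 7.44 and 8.0 (class median 9.09), which is 2.12-fold to 4.82-fold below the medians. Clec4g read 7.93 and 8.19 (class median 9.52), then 8.21, 8.69, 8.76 and 9.12 (class median 9.79). In Fcgr2b and Clec4g, which were not used to pick them, the 6 livers were also the lowest of their classes. Lyve1 lay between -2.60 and -0.87 log2 units from its class median in the 6 (1.82-fold to 6.06-fold lower), and the least affected of them ranked 17 from the bottom of its class. Ehd3 lay between -0.93 and -0.10.

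In log2 units the stabilins moved less than Oit3, Fcgr2b, Clec4g and Lyve1. Stab1 was below its class median in all 6, between -0.62 and -0.13 log2 units from it. Of the 6 livers, 5 were among the 10 lowest of their class for Stab1 and 3 among the 5 lowest. Stab2 read 7.97 and 8.25 (class median 8.49), then 8.94, 8.72, 8.59 and 8.34 (class median 8.91). So Stab2 lay within the range of the other livers in 5 of the 6, and in 1 it was above the median. The liver with the lowest Stab2 of the Eif2s3y-low class was the one of the 6 with the smallest fall in Oit3.

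**Figure D1:**
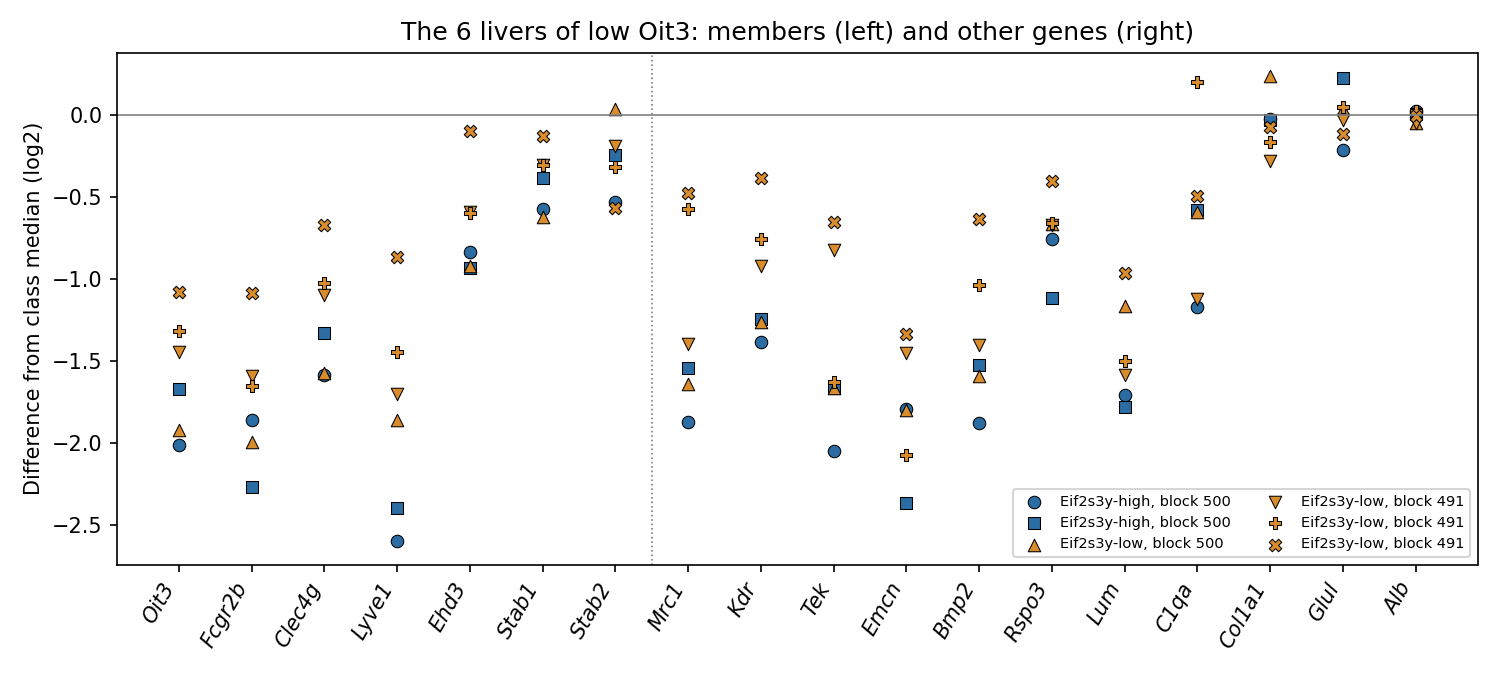
Each symbol is 1 of the 6 livers of low Oit3, and its height is the log2 difference from the median of its Eif2s3y class; members are left of the dotted line and other genes right of it. Oit3, by which the livers were picked, and also Fcgr2b and Clec4g are far below the class median in all 6. Stab2 lies between -0.57 and 0.03, and Alb between -0.05 and 0.02.

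Other genes of the sinusoid were low in the same livers, and the few hepatocyte genes listed here mostly were not. Genes in this paragraph were picked after their values were seen. Over all genes 7.48% were below the class median in all 6 livers, and 18.1% in 5 or 6 of them. Of the 21 measured general endothelium genes, 16 were below in all 6. Emcn, the sialomucin endomucin, lay between -2.37 and -1.33 log2 units from the class median, and Tek, the angiopoietin receptor, between -2.05 and -0.65. Of the 22 other sinusoidal genes, 16 were below the median in all 6, among them Mrc1, the mannose receptor (-1.87 to -0.48), and Kdr, a VEGF receptor (-1.39 to -0.38). Of the 14 stellate and fibroblast genes 9 were below in all 6, with the small proteoglycan gene Lum between -1.78 and -0.97, while the collagen gene Col1a1 lay between -0.28 and 0.24. Kupffer cell genes were low in most of the 6 as well: 2 of 15 were below in all 6, Cd68 and Folr2, and 11 of 15 in 5 or 6. Cd68, Adgre1, Folr2, C1qa and C1qb, all macrophage genes, were among the 10 lowest of their class in 5 of the 6 livers. Other Kupffer genes were less uniform. Marco ran from -0.99 to 1.52 and Cd163 from -0.65 to 0.92, each among the 10 lowest in 1 liver, and Clec4f was in 2. Cd68 lay between -1.33 and -0.03, and C1qa, a complement gene, between -1.17 and 0.20. The part of Kupffer cells in the low values of the members was not tested. Of the 6 hepatocyte genes none was below in all 6 and 1 in 5 or 6, and Alb, which encodes albumin, lay between -0.05 and 0.02. Alb is very bright and ran only from 14.39 to 14.64 over the livers, so it could show little change. Apob, which ran from 10.08 to 12.83, lay between -0.11 and 0.40 in the 6. Correlations between genes are therefore given both over all livers and without these 6.

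In level, 6 of the 7 members had higher means in the Eif2s3y-low class, and Lyve1 had nearly equal means. The classes were formed from a measured gene, so these values are a description without a test. Stab1 ran from 6.91 through a median of 7.48 to 8.01 in the Eif2s3y-high livers and from 7.12 through 7.75 to 8.25 in the Eif2s3y-low livers. The means were 7.46 ± 0.17 and 7.76 ± 0.18 (SD), a 1.23-fold difference. Stab2 ran from 7.93 through 8.49 to 9.03 and from 8.34 through 8.91 to 9.31, with means of 8.49 ± 0.21 and 8.89 ± 0.19, 1.32-fold apart. The classes overlapped for both stabilins. For Stab2, 2 Eif2s3y-high livers lay above the Eif2s3y-low median and 4 Eif2s3y-low livers below the Eif2s3y-high median, and for Stab1 these counts were 4 and 7.

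The lectin Clec4g ran from 7.93 through 9.52 to 10.15 in Eif2s3y-high livers and from 8.21 through 9.79 to 10.19 in Eif2s3y-low livers (means 9.52 ± 0.24 and 9.77 ± 0.24). The Fc receptor gene Fcgr2b ran from 6.55 through 8.82 to 9.22 and from 7.10 through 9.09 to 9.50 (means 8.76 ± 0.31 and 9.03 ± 0.31). Their means were 1.19-fold and 1.21-fold higher in the Eif2s3y-low class. Oit3 ran from 5.60 through 7.61 to 7.94 and from 5.91 through 7.83 to 8.35 (means 7.56 ± 0.28 and 7.78 ± 0.29), and Ehd3 from 7.75 through 8.69 to 9.14 and from 8.0 through 8.92 to 9.39 (means 8.67 ± 0.20 and 8.89 ± 0.23). Both were 1.16-fold higher in Eif2s3y-low livers, with wide overlap: 28 Eif2s3y-low livers lay below the Eif2s3y-high median of Ehd3.

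Lyve1 behaved differently from the others in spread. It ran from 3.09 through 5.69 to 7.54 in Eif2s3y-high livers and from 3.77 through 5.63 to 7.10 in Eif2s3y-low livers, with means of 5.63 ± 0.73 and 5.64 ± 0.68. The 90th percentile over livers was 3.41-fold and 3.50-fold above the 10th, where the median gene spread 1.38-fold and 1.36-fold. Its SD was larger than that of 99% of all genes in both classes. Its SD without the 6 livers remained 0.68 and 0.64, so this width was not set by them. A second Lyve1 probe followed the first with r = 0.911 in Eif2s3y-high and 0.898 in Eif2s3y-low livers. The second probes of Fcgr2b (r = 0.897 and 0.938) and Ehd3 (r = 0.711 and 0.812) also followed. In contrast, the SD of Fcgr2b fell from 0.31 to 0.20 and from 0.31 to 0.17 without the 6 livers. That of Oit3 fell from 0.28 to 0.19 and from 0.29 to 0.16, which follows from picking these livers by low Oit3.

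**Figure D2:**
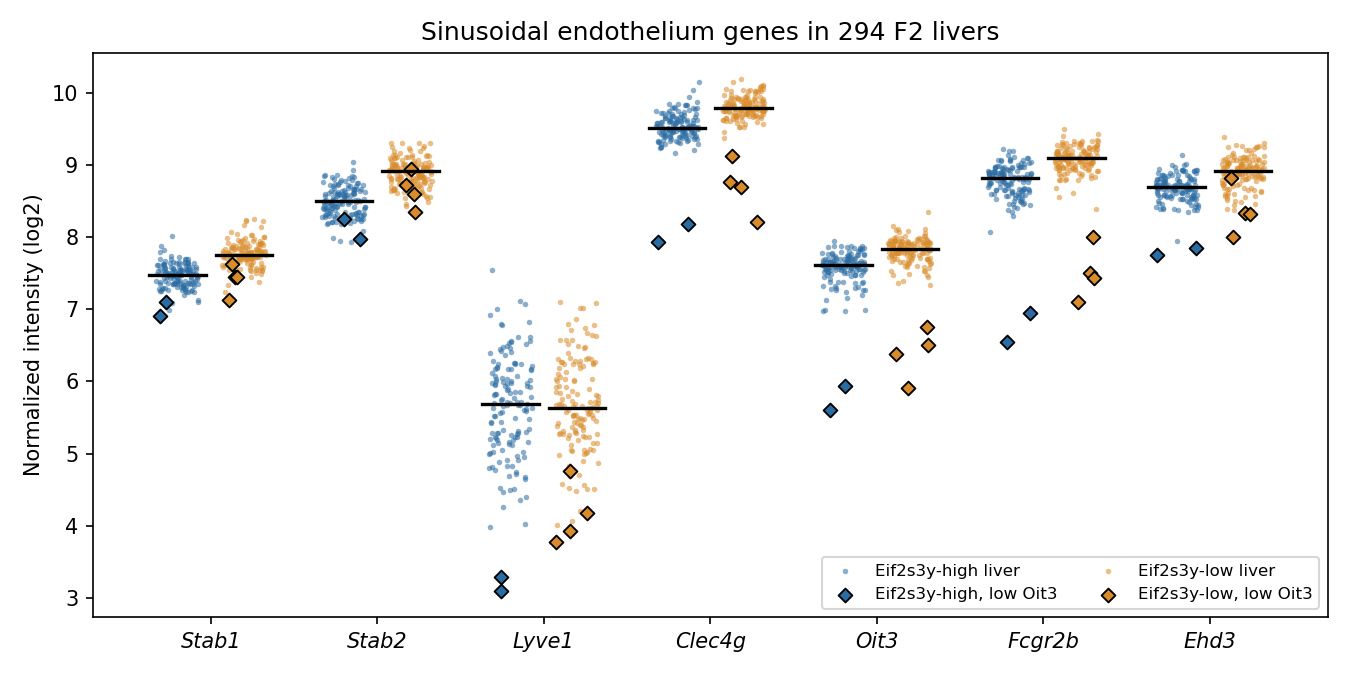
Each point is 1 liver, the vertical axis is normalized intensity (log2), black lines are class medians and diamonds are the 6 livers of low Oit3. Lyve1 has the widest spread of the 7 members in both classes. The diamonds are the lowest points for Oit3, by which they were picked, and also for Fcgr2b and Clec4g. Heights of different genes come from different probes and are not comparable.

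Coexpression was tested by fitting all genes on each member within a class with limma and adjusting over all genes by the Benjamini-Hochberg method. A pair counted as called when the adjusted p was below 0.05 in both directions of the fit. Of the 21 pairs, 19 were called positive in Eif2s3y-high and 17 in Eif2s3y-low livers. The background differs by member. In Eif2s3y-high livers the share of all genes called positive was 15.1% with Stab1, 6.40% with Stab2, 6.92% with Lyve1, 5.02% with Clec4g, 9.06% with Oit3, 8.48% with Fcgr2b and 2.87% with Ehd3. In Eif2s3y-low livers it was 11.4%, 3.67%, 4.53%, 5.10%, 4.22%, 7.90% and 3.48% in the same order. The median r over the 21 pairs was 0.375 and 0.417, beside a median r of a member with any gene of -0.007 and -0.012.

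With the 6 livers of low Oit3 left out, 11 and 12 of the 21 pairs were called and the median r was 0.260 and 0.275. The shares of all genes called positive were then 16.5% (Stab1), 5.62% (Stab2), 6.67% (Lyve1), 7.24% (Clec4g), 12.3% (Oit3), 8.84% (Fcgr2b) and 4.53% (Ehd3) in Eif2s3y-high livers. In Eif2s3y-low livers they were 15.5%, 4.56%, 2.96%, 8.0%, 3.95%, 8.80% and 7.86% in that order. Fewer pairs of members thus passed the test without these livers. The share of all genes called positive was higher in both classes with Stab1, Clec4g, Fcgr2b and Ehd3.

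**Figure D3:**
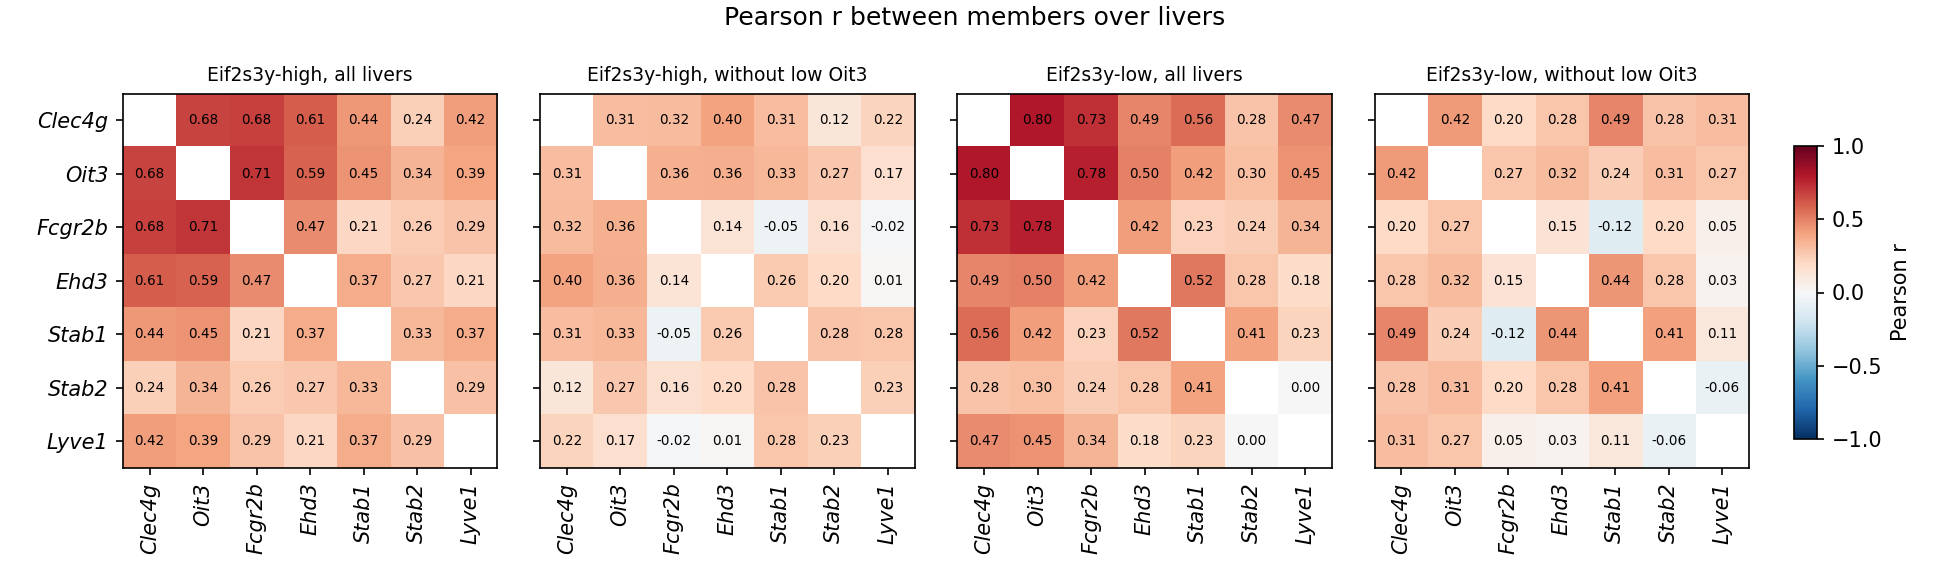
Each square gives Pearson's r between a pair of members over the livers of a class, with all livers and without the 6 livers of low Oit3; red is positive and blue negative. The dark block of Clec4g, Oit3 and Fcgr2b pales without the 6 livers, while Stab1 with Stab2 stays at 0.28 and 0.41.

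Over all livers the 3 pairs of Clec4g, Oit3 and Fcgr2b had the highest Pearson r in both classes, and much of that r came with the 6 livers. Clec4g and Oit3 had r = 0.678 in Eif2s3y-high livers (rho = 0.379, limma adjusted p = 2.66e-13) and r = 0.803 in Eif2s3y-low livers (rho = 0.446, adjusted p = 2.04e-18). Leaving the 6 livers out gave 0.309 and 0.423, still called (adjusted p = 0.00466 and 0.000318). Fcgr2b and Oit3 had r = 0.714 and 0.779 (rho = 0.337 and 0.347), and 0.359 and 0.275 without the 6, both called (adjusted p = 0.000344 and 0.0270). Clec4g and Fcgr2b had r = 0.681 and 0.731 (rho = 0.400 and 0.291). Without the 6 this pair kept r = 0.316 and its call in Eif2s3y-high livers (adjusted p = 0.00365), but fell to r = 0.200 with an adjusted p of 0.0938 in Eif2s3y-low livers. Each of these Pearson correlations had a two-sided permutation p of 1e-05, the smallest that 100000 resamples allow, while the rho had p between 1e-05 and 0.00029. Within label blocks, with class means removed, the pairs were positive in 13 or 14 of 15 blocks, with median block r of 0.407 (Clec4g and Oit3), 0.351 (Fcgr2b and Oit3) and 0.373 (Clec4g and Fcgr2b).

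By rho, and by r without the 6 livers, other pairs led. In Eif2s3y-high livers Clec4g and Ehd3 were highest by both measures, with r = 0.608 (rho = 0.438, limma adjusted p = 5.3e-10) and r = 0.400 without the 6 (adjusted p = 0.000771). In Eif2s3y-low livers this pair had r = 0.487 (rho = 0.319) and 0.278 without the 6, still called (adjusted p = 0.0152), and it was positive in 13 of 15 label blocks. Clec4g and Stab1 were highest by both measures in Eif2s3y-low livers, with r = 0.560 (rho = 0.514) and 0.492 without the 6. In Eif2s3y-high livers Clec4g and Stab1 had r = 0.436 (rho = 0.315) and 0.308 without the 6. So the lectin gene stood in the leading pair of either class, with a different partner in each. Neither pair was shown to differ between the classes (unadjusted limma p = 0.284 with Ehd3 and 0.270 with Stab1). By rho, Ehd3 and Stab1 (0.507) were close behind in Eif2s3y-low livers.

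**Figure D4:**
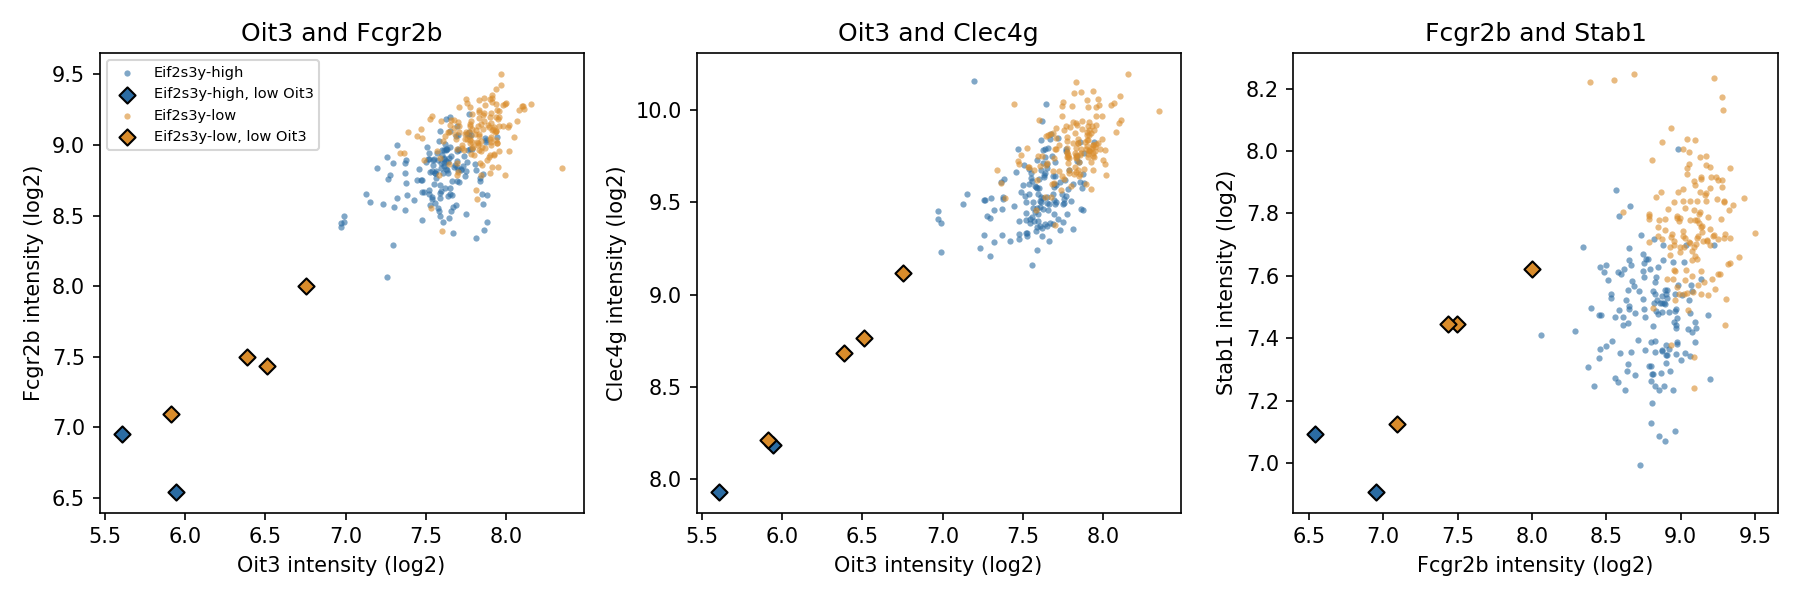
Each point is 1 liver at its log2 intensities of a pair of genes; diamonds are the 6 livers of low Oit3. In the Oit3 panels the diamonds extend the points down and to the left, as far as Oit3 5.60. In the panel of Fcgr2b and Stab1 they lie left of a cloud in which r was -0.05 and -0.12.

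The stabilins and Ehd3 formed 3 further pairs, of which those with Stab1 were called with and without those livers. Stab1 and Stab2 had r = 0.334 in Eif2s3y-high (rho = 0.305, permutation p = 4e-05 and 0.00021, limma adjusted p = 0.00382) and r = 0.406 in Eif2s3y-low livers (rho = 0.442, both permutation p = 1e-05, adjusted p = 0.000416). Leaving out the 2 livers farthest from the median of Stab1 gave 0.306 and 0.453, and leaving out the 6 gave 0.283 and 0.410, called in both classes. With quantile normalization the call was lost in Eif2s3y-high livers (r = 0.228, adjusted p = 0.116). Ehd3 and Stab1 had r = 0.375 and 0.525 (rho = 0.275 and 0.507), and 0.260 and 0.441 without the 6, again called in both. With the next brightest Ehd3 probe this call too was lost in Eif2s3y-high livers (r = 0.225, adjusted p = 0.125). Ehd3 and Stab2 had r = 0.273 and 0.281 (rho = 0.176 and 0.273, adjusted p = 0.0344 and 0.0235). Without the 6 livers this pair was not called in Eif2s3y-high livers (r = 0.197, adjusted p = 0.137) and was in Eif2s3y-low livers (r = 0.278, adjusted p = 0.0234). Stab1 with Stab2, with Ehd3 and with Clec4g were positive in 15 of 15 label blocks and were the only pairs of the 21 to be so.

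Of the pairs not yet named, some held as well. Ehd3 and Oit3 had r = 0.591 in Eif2s3y-high and 0.503 in Eif2s3y-low livers. Without the 6 livers r was 0.364 and 0.320, still called (limma adjusted p = 0.00233 and 0.00779). Oit3 and Stab2 were also called in both classes, with and without the 6. Oit3 and Stab1 had r = 0.451 and 0.417, and 0.331 and 0.244 without the 6, then called only in Eif2s3y-high livers. The pairs that follow were looser. Fcgr2b and Stab1, both receptor genes of the same cells, had r = 0.210 in Eif2s3y-high livers, not called (adjusted p = 0.0575), and 0.231 in Eif2s3y-low livers (adjusted p = 0.0339), and without the 6 livers r was -0.048 and -0.120 (adjusted p = 0.768 and 0.307). Their rho over all livers was already -0.024 and 0.091. Fcgr2b and Lyve1 went from 0.288 and 0.337 to -0.016 and 0.051 without the 6. Lyve1 and Ehd3 were called in neither class (r = 0.210 and 0.182, and 0.009 and 0.033 without the 6). Lyve1 and Stab2 had r = 0.295 in Eif2s3y-high and 0.002 in Eif2s3y-low livers, and 0.234 and -0.063 without the 6, where the first was no longer called (adjusted p = 0.0508). Over all livers that was the largest difference between the classes over the 21 pairs, at an unadjusted p of 0.0118 and an adjusted p of 0.815 by limma. No pair differed between the classes after adjustment (0 of 21 by limma, 1 at an unadjusted p below 0.05), and over all genes and the 7 members 0.00% of differences were called.

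The 15 label blocks differed in 3 members by limma's moderated F test with class as a covariate. Oit3 (adjusted p = 3.33e-07), Fcgr2b (8.16e-07) and Clec4g (0.00320) were called, and Stab1, Stab2, Lyve1 and Ehd3 were not, where 38.4% of all genes were called. The blocks took 20.1% of the variance of Oit3 and 19.4% of that of Fcgr2b, beside a median of 7.58% over all genes. Without the 6 livers the call of Clec4g was lost (adjusted p = 0.272), while Oit3 (1.11e-07) and Fcgr2b (3.02e-08) were still called and the share of all genes called was 39.6%. The block with the lowest number had the lowest Oit3, with a median 0.42 below the class medians over its 19 livers, 3 of them among the 6. Fcgr2b was lowest there too, at -0.22, and highest in the block with the highest number, at 0.16. So 3 of 7 members were called over all livers and 2 of 7 without the 6, near the share of all genes.

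For each member the 3 genes with the highest r in both classes were taken, leaving out genes below the median intensity. They were picked for their r, so r is given as a description with no p, first over the Eif2s3y-high and then over the Eif2s3y-low livers. For Stab1 these were Plxnd1, a semaphorin receptor of endothelium (r = 0.604 and 0.570), Fgd5, an endothelial activator of Cdc42 (0.579 and 0.560), and Slc43a3, a nucleobase carrier (0.549 and 0.552). For Stab2 they were Prelp, a matrix proteoglycan (0.428 and 0.429), Stard8, a RhoGAP (0.427 and 0.439), and again Plxnd1 (0.473 and 0.426). Plxnd1 without the 6 livers had r = 0.555 and 0.526 with Stab1 and 0.432 and 0.406 with Stab2. The other 4 stabilin partners then ran from 0.378 to 0.520.

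Clec4g, Oit3 and Fcgr2b shared partners with each other. Clec14a, an endothelial C-type lectin, had r = 0.733 and 0.753 with Clec4g, 0.804 and 0.838 with Oit3, and 0.735 and 0.786 with Fcgr2b. The values without the 6 livers were 0.433 and 0.329 for Clec4g, 0.564 and 0.533 for Oit3, and 0.419 and 0.366 for Fcgr2b. With Oit3, Clec14a had a higher r than any member, with and without the 6. It was picked for its high r, which favours that order. Tek had r = 0.768 and 0.761 with Oit3 (0.434 and 0.408 without the 6) and 0.799 and 0.778 with Fcgr2b (0.520 and 0.427). Plexin C1 (Plxnc1) had r = 0.732 and 0.770 with Clec4g (0.499 and 0.385 without the 6). Adgrl4, an endothelial adhesion receptor, had r = 0.733 and 0.791 with Fcgr2b (0.444 and 0.454). Plpp1, a lipid phosphate phosphatase, was among the first 3 for Clec4g (0.749 and 0.718), Oit3 (0.743 and 0.755) and Ehd3 (0.624 and 0.673). These fell to 0.454 and 0.394, 0.409 and 0.454, and 0.426 and 0.604 when the 6 livers were left out.

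Ehd3 was nearest to Kdr, with r = 0.720 and 0.686 and a rho of 0.534 and 0.638. Without the 6 livers Kdr held at 0.587 and 0.602, and Aqp1, a water channel of liver endothelium and bile ducts, went from 0.667 and 0.654 to 0.513 and 0.570. Lyve1 was nearest to Acer2, an alkaline ceramidase (0.531 in both classes), to Flt4, the VEGF-C receptor found in lymphatic and sinusoidal endothelium (0.526 and 0.507), and to Cyp4b1, a cytochrome P450 (0.474 and 0.580). Without the 6 these were 0.448 and 0.459, 0.403 and 0.383, and 0.310 and 0.483.

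Against the mean z score of the 7 members, the nearest genes were Plpp1 (r = 0.804 and 0.821), Elk3, an ETS factor (0.800 and 0.796), Tek (0.791 and 0.799), Kdr (0.786 and 0.805), Clec14a (0.804 and 0.776), Mylip, a ubiquitin ligase of the LDL receptor (0.775 and 0.789), Igfbp7, a secreted vascular protein (0.785 and 0.770), and Cyp4b1 (0.814 and 0.765). They ran, without the 6 livers, from 0.480 (Clec14a in Eif2s3y-low) to 0.645 (Cyp4b1 in Eif2s3y-high). The farthest negative genes were weaker. Slc35d1, a nucleotide sugar carrier, had r = -0.425 and -0.303, and Speer4f1, Thsd7b, Nxph4 and Nrxn3 ran from -0.375 to -0.288. Leaving out the 6 livers gave -0.309 and -0.211 for Slc35d1 and -0.400 to -0.253 for the other 4.

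Of the gene lists, general endothelium followed the members most. Of its 21 measured genes, 17 and 19 were called positive with Clec4g in Eif2s3y-high and Eif2s3y-low livers, 18 and 19 with Stab1, 17 and 18 with Oit3, 18 and 18 with Ehd3, 16 and 16 with Fcgr2b, 16 and 12 with Stab2, and 14 and 10 with Lyve1. The median r with the members' mean was 0.587 and 0.619, beside -0.009 and -0.015 over all genes, and 0.344 and 0.427 without the 6 livers. Tek and the adhesion gene Esam were highest, and Nos3, the endothelial nitric oxide synthase, was lowest (0.035 and 0.252, and 0.089 and 0.166 without the 6). Without the 6 livers the counts were 8 and 14 with Clec4g, 13 and 17 with Stab1, 13 and 13 with Oit3, 11 and 12 with Ehd3, 7 and 7 with Fcgr2b, 10 and 11 with Stab2, and 2 and 1 with Lyve1, so by count the general endothelial genes followed Lyve1 least in both settings.

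Of the 22 other sinusoidal genes, 15 and 14 were called with Clec4g, 14 and 15 with Fcgr2b, 12 and 13 with Oit3 and 9 and 6 with Stab2. Leaving the 6 out, these counts were 8 and 10, 8 and 8, 6 and 3, and 6 and 4. With Oit3 in Eif2s3y-high livers 5 of the 22 were then called negative, where 7.64% of all genes were, beside 0 over all livers. Kdr and Cyp4b1 were highest and Aass, a lysine degradation enzyme that hepatocytes also express, was lowest (r with the mean -0.069 and -0.169, and -0.133 and -0.153 without the 6). The list split by member. The DNase gene Dnase1l3 had r = 0.537 and 0.622 with Stab1 (0.496 and 0.636 without the 6) but 0.081 and -0.077 with Fcgr2b (-0.155 and -0.250). Mrc1 had r = 0.295 and 0.326 with Stab1 (0.110 and 0.143 without the 6) and 0.753 and 0.658 with Fcgr2b (0.525 and 0.352). Clec1b, a lectin, had r = 0.423 and 0.518 with Lyve1 (0.284 and 0.452 without the 6) and 0.208 and 0.047 with Stab2 (0.108 and -0.009). Gata4, the factor that keeps sinusoidal identity in mouse liver, was called with 0 members in Eif2s3y-high and 1 in Eif2s3y-low livers, and its r with the mean was 0.125 and 0.238 (0.046 and 0.113 without the 6, with 0 members called in either class). The MAF factor gene Maf was called with 4 and 7 members (r with the mean 0.333 and 0.618), but without the 6 livers that r was 0.018 and 0.240.

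**Figure D5:**
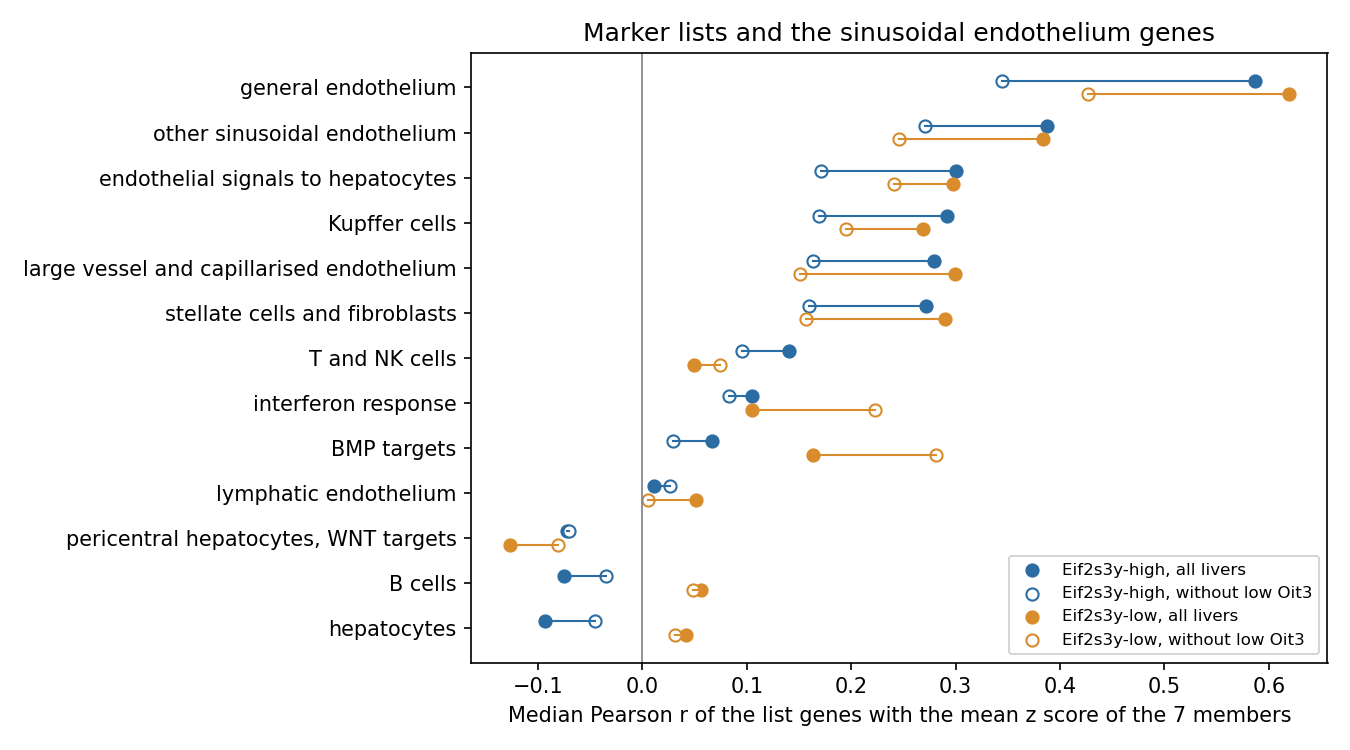
Each row is a gene list, and a point is the median Pearson r of its genes with the mean z score of the 7 members; filled points use all livers and open points leave out the 6 livers of low Oit3. General endothelium is highest in both settings (0.587 and 0.619 filled), and pericentral WNT targets and hepatocyte genes lie near 0 or below.

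Large vessel genes followed less. Their median r with the mean was 0.280 and 0.299, and 0.164 and 0.151 without the 6 livers, over 11 genes. Plvap, a protein of endothelial pore diaphragms, was highest (0.481 and 0.499, and 0.349 and 0.377 without the 6). Next was Thbd, the thrombomodulin gene (0.256 and 0.574, and 0.107 and 0.326), and the selectin gene Selp was lowest (-0.067 and -0.096, and -0.118 and -0.120). Plvap was called with 6 of 7 members in both classes, and with 3 and 4 without the 6 livers. The 4 measured lymphatic genes had a median r of 0.011 and 0.051 (0.027 and 0.005 without the 6). Of these, the r of Reln was highest over all livers (0.338 and 0.494) and fell to 0.215 and 0.134 without the 6. Reln had a mean of 9.62, and which cells its signal came from was not tested. Prox1, the lymphatic master factor that hepatocytes also express, was lowest (-0.052 and -0.014), with a positive r of 0.078 and 0.062 without the 6. Lyve1, itself a lymphatic marker, was called positive with 0 of the 4 in either class, and with 1 and 0 of them without the 6 livers.

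Among the signals that endothelium sends to hepatocytes, the BMP genes, Rspo3 and Wnt2 followed some members over all livers, less so without the 6, and Wnt9b was called with none over all livers. Bmp2, which drives hepcidin in hepatocytes, was called with 6 and 7 members and had r = 0.587 and 0.700 with the mean (0.314 and 0.455 without the 6, called with 3 and 5). Rspo3, a WNT enhancer, had 0.549 and 0.517 and was called with 7 and 6, and without the 6 livers it had 0.316 and 0.274 and was called with 3 and 2. Bmp6 had 0.430 and 0.606 (5 and 6 members), and 0.369 and 0.439 (3 and 3) without the 6. Wnt2 had 0.401 and 0.400 (5 and 4 members), and 0.192 and 0.267 (0 and 1) without the 6. Wnt9b had -0.022 and -0.057 with 0 members called positive, and -0.166 and -0.095 without the 6. Dll4, a Notch ligand, had 0.016 and 0.142 with 0 called, and -0.055 and 0.062. Dkk1, a WNT inhibitor, was lowest at -0.215 and -0.245, and at -0.315 and -0.322 without the 6.

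The hepatocyte targets of those signals were followed in either direction by some members. Of the 12 pericentral WNT targets, at most 1 was called positive with any member over all livers and at most 2 without the 6, and the median r with the mean was -0.072 and -0.127 (-0.071 and -0.081 without the 6). Negative calls were more frequent. With Lyve1 3 of the 12 were called negative in each class, with Stab1 and Oit3 2 in each, with Fcgr2b 2 and 1, with Clec4g 0 and 2, with Ehd3 0 and 1 and with Stab2 0 and 0. The share of all genes called negative in Eif2s3y-high livers was 12% (Stab1), 4.52% (Stab2), 7.54% (Lyve1), 2.12% (Clec4g), 4.97% (Oit3), 8.74% (Fcgr2b) and 0.643% (Ehd3). In Eif2s3y-low livers it was 7.01%, 1.06%, 0.949%, 2.22%, 2.12%, 8.41% and 1.24% in that order. Without the 6 livers Lyve1 had 3 and 1 of the 12 called negative (7.09% and 0.481% of all genes), Clec4g 1 and 4 (4.42% and 3.74%) and Oit3 2 and 1 (7.64% and 1.38%). Cyp1a2, a cytochrome P450, had r = -0.339 and -0.296 with Lyve1 (-0.319 and -0.249 without the 6), and Cyp2e1, another, had -0.304 and -0.282 (-0.282 and -0.292). Glul, glutamine synthetase of the pericentral hepatocytes, had -0.086 and 0.011 with the mean (-0.154 and 0.0003 without the 6).

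More BMP targets were called with Stab1 in Eif2s3y-low than in Eif2s3y-high livers, and no gene's difference between the classes was called. Of 6 measured, 4 were called positive in Eif2s3y-low livers (median r 0.298) and 2 in Eif2s3y-high livers (median r 0.110). Of all genes 11.4% and 15.1% were. Without the 6 livers the counts were again 4 and 2, beside 15.5% and 16.5% of all genes. With Ehd3 2 were called in Eif2s3y-low livers and 0 in Eif2s3y-high livers, beside 3.48% and 2.87% of all genes. Without the 6 these were 5 and 1, beside 7.86% and 4.53%. With each of the other 5 members 0 or 1 was called positive over all livers. Smad6, an inhibitor of BMP signalling expressed in endothelium too, had r = 0.295 and 0.409 with the mean (0.239 and 0.423 without the 6) and was called with 3 and 5 members. Id1 had 0.134 and 0.251 (0 and 2 members), and 0.269 and 0.320 without the 6. Hamp, the hepcidin gene, was lowest at -0.010 and 0.030 with 0 members called, and at 0.012 and 0.101 without the 6. The 6 hepatocyte genes had a median r of -0.094 and 0.042 (-0.045 and 0.031 without the 6), with Trf, transferrin, highest at 0.177 and 0.197 (0.187 and 0.155).

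Markers of other cells moved with some members. Of 15 measured Kupffer cell genes, 14 were called positive with Lyve1 in Eif2s3y-low and 6 in Eif2s3y-high livers, 9 and 9 with Clec4g, and 0 and 0 with Ehd3. Leaving out the 6 livers left 11 and 1 with Lyve1 and 5 and 3 with Clec4g, in the order Eif2s3y-low and Eif2s3y-high. Cd68 and Adgre1, macrophage genes, had the highest r with the mean (0.379 and 0.327, and 0.327 and 0.333), and Marco, a macrophage receptor, the lowest (0.091 and 0.171). Leaving the 6 out, Cd68 had 0.213 and 0.235, Adgre1 0.190 and 0.237 and Marco 0.015 and 0.193. C1qa had r = 0.285 and 0.369 with Lyve1 (0.206 and 0.320 without the 6). The summed intensity of the 15 genes ran from 3082 to 19485 in Eif2s3y-high and from 5446 to 31372 in Eif2s3y-low livers. The lowest single value of a marker was 16.8, below the lowest array median of 21.1. With the Kupffer mean removed from all genes, the share called with Lyve1 in either direction went from 5.48% to 0.174% in Eif2s3y-low livers. In Eif2s3y-high livers it went from 14.45% to 9.72%. Removing the first principal component instead gave 0.156% and 9.06% in the same order. How far that component overlaps the Kupffer mean was not tested. The part of Kupffer cells in the Lyve1 values was not tested further. Lyve1 also had 3 of 5 interferon response genes called in Eif2s3y-low and 2 in Eif2s3y-high livers, with Usp18 at r = 0.312 and 0.231 in that order (0.354 and 0.256 without the 6). The other 6 members had 0 called in either class over all livers. With the 6 livers left out 4 and 2 were called with Lyve1, and in Eif2s3y-low livers 3 with Clec4g and 2 with Oit3 as well.

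Of 14 stellate and fibroblast genes, 5 to 8 were called with each member in each class, and 0 to 5 without the 6 livers. Their summed intensity ran from 3224 to 7453 and from 4318 to 10018. Dcn (r with the mean 0.516 and 0.633) and Lum (0.484 and 0.504) were highest and Des, the desmin gene, lowest (0.071 and 0.038). Dcn without the 6 livers stood at 0.167 and 0.317, Lum at 0.113 and 0.103 and Des at -0.023 and -0.041. B cells carry Fcgr2b as well. Of 4 B cell genes 1 was called with Fcgr2b in Eif2s3y-high and 0 in Eif2s3y-low livers, with and without the 6. With the mean Cd79b was highest (0.270 and 0.281, and 0.315 and 0.215 without the 6) and Blk lowest (-0.099 and -0.097, and -0.101 and -0.157). Of 7 T and NK cell genes 0 were called positive with Fcgr2b in either setting, and Cd3e was lowest with the mean (-0.255 and -0.134, and -0.262 and -0.142).

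In an F2 cross, genes on one stretch of chromosome can vary together, so the 10 measured genes on each side of a member were compared. The median absolute r with these 20 neighbours was 0.048 to 0.166 over members and classes, beside 0.077 to 0.129 for all genes (0.068 to 0.193 and 0.081 to 0.132 without the 6 livers). The highest neighbour of Stab1 in both classes was Bap1, a deubiquitinase gene (r = 0.348 and 0.331, and 0.412 and 0.420 without the 6). Fcgr2b had r = 0.333 with its neighbour Fcgr3, an activating Fc receptor of similar sequence, in Eif2s3y-high livers (0.201 without the 6), and whether their probes share signal was not tested. For Oit3 the strongest neighbour in Eif2s3y-high livers was Ranbp2, a nuclear pore gene (r = -0.429, and -0.458 without the 6), and for Ehd3 it was Lbh, a transcription cofactor, in both classes (0.265 and 0.282, and 0.220 and 0.274 without the 6).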

How the data were processed

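Liver RNA of 294 mice was measured on 1 array each. The authors deposited normalized intensities on a linear scale, made with RMA per the submitters' processing notes; the version is not given in the sources used here. They were taken to log2 with no pseudocount or scaling. Of 32640 probes, 25508 had 1 symbol, and the brightest probe stood for each of 16643 genes, after 2830 symbols were updated through RefSeq synonyms (GRCm38.p6). Array medians ran from 21.1 to 23.2 intensity units over the 294 arrays.

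The members, the 13 other lists (152 genes, 137 measured) and the tests were chosen with earlier results of these data known. Classes were cut at the widest gap of Eif2s3y. Every gene was fitted on each member (z scores within class) with limma 3.58.1 in R 4.3.3 (lmFit, eBayes), with p-values adjusted over all genes by the Benjamini-Hochberg method at 0.05; the fit was tested on simulated data. Permutation tests used 100000 resamples, two-sided, over 21 pairs. Named were the members, 3 partners of each, 8 genes highest and 5 lowest with the members' mean, and of each list the 2 highest and 1 lowest; other genes named were chosen after their values were seen. A liver is a separate mouse by its label. Alternatives were quantile normalization, label block means removed, arrays of low correlation left out, the first principal component or the Kupffer mean removed, ranks, genes above the median mean, next brightest probes and, added after the data were seen, the livers of low Oit3 left out.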

Additional observations from a re-analysis of the deposited data

How the results depend on the processing

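Leaving out the 6 livers of low Oit3, an alternative chosen after seeing the data, lowered the pairs called in Eif2s3y-high livers from 19 to 11, and leaving out the 27 arrays of low correlation lowered them to 12. The other alternatives gave 14 to 20 there. In Eif2s3y-low livers, where 17 pairs were called, the alternatives gave 12 to 18. No alternative called a difference between the classes in any of the 21 pairs. At an unadjusted p below 0.05 there were 9 such differences without the arrays of low correlation, 2 on ranks and 1 in each other setting, the reported one included. The sign of r turned for 3 pairs. Fcgr2b and Stab1 in Eif2s3y-high livers went to -0.0274 without the arrays of low correlation, -0.0238 on ranks and -0.0480 without the livers of low Oit3, and in Eif2s3y-low livers to -0.120 without the latter. Fcgr2b and Lyve1 in Eif2s3y-high livers went to -0.0161 without those livers. Lyve1 and Stab2 in Eif2s3y-low livers went to -0.0373 with quantile normalization, -0.00399 without the first principal component, -0.0431 without the Kupffer mean, -0.00679 on ranks, -0.0632 without the livers of low Oit3 and -0.0395 with the next probe of Lyve1. The cause was not tested.

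The share of all genes called with a member, in both directions together, moved by over 1.5 times as follows. Quantile normalization gave 3.0% (Stab1) and 2.13% (Stab2) in Eif2s3y-high livers, and 8.74% (Stab1) and 3.0% (Ehd3) in Eif2s3y-low livers. Removing block means gave 17.98% (Stab2, Eif2s3y-high), 7.54% (Stab2, Eif2s3y-low) and 8.68% (Lyve1, Eif2s3y-low). Without the arrays of low correlation the shares were 10.81% (Ehd3) in Eif2s3y-high livers, and 2.14% (Lyve1), 10.47% (Fcgr2b) and 9.54% (Ehd3) in Eif2s3y-low livers. For Lyve1, removing the first principal component gave 9.06% and 0.156%, ranks 8.65% and 1.53%, and removing the Kupffer mean 0.174% in Eif2s3y-low livers. Ranks gave 8.37% for Ehd3 in Eif2s3y-low livers. Genes above the median mean gave, in Eif2s3y-high livers, 15.2% (Clec4g), 27.8% (Oit3), 33.02% (Fcgr2b) and 7.38% (Ehd3), and in Eif2s3y-low livers 28.03% (Stab1), 11.36% (Stab2), 13.5% (Clec4g), 12.6% (Oit3), 29.25% (Fcgr2b) and 8.98% (Ehd3). Fewer genes are tested there. Without the livers of low Oit3 the shares were 11.66% and 11.74% (Clec4g), 6.06% and 11.27% (Ehd3), and 3.44% (Lyve1, Eif2s3y-low). The next brightest probes read 8.44 for both Fcgr2b and Ehd3 in Eif2s3y-high livers. Between label blocks, Clec4g was no longer called without the arrays of low correlation (adjusted p = 0.0832) or without the livers of low Oit3 (0.272).

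No paired analysis was possible because the labels put all livers in 1 group. The classes come from a measured gene, the meaning of the label blocks is not stated, and signal over background limits what dim probes can show.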
